A study of Mus musculus with 81 samples.

Results

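The interferon-inducible GTPases were followed by 10 genes, the guanylate-binding proteins Gbp2, Gbp2b, Gbp3, Gbp5, Gbp6 and Gbp7 and the immunity-related GTPases Irgm1, Irgm2, Igtp and Iigp1, out of 22180 genes with a probe of their own on the array. A gene was represented by the brightest array probe that named that gene and no other. Gbp2 had only a probe shared with Gbp2b and got no value. Gbp6 had a probe, but it passed 3.04 log2, the median of the whole table and the floor used here, on 1 array only, so it was not tested. The other 8 genes were tested among 17099 genes, each with 1 probe. The arrays held sorted macrophages and progenitors of mice with a knockout of Irf8 and of wild-type mice, 80 samples in 27 groups. Knockout and wild-type groups existed for 13 populations, namely the yolk-sac progenitor populations A1 and A2 at E9.5, brain microglia, F4/80high macrophages of the kidney, liver Kupffer cells and the CD11bhigh macrophages of both organs at E14 and in adults aged 6 weeks, and Langerhans cells of adult skin. Erythro-myeloid progenitors at E8 were wild type only. Groups held 3 samples, except the wild-type kidney F4/80high macrophages at E14 with 2, and no agent was given. No source used here states the strain, the sex, the knockout allele or which cells carried it. The sample titles of the Langerhans cells name GFP+ in the wild type and not in the knockout. A gate or reporter may thus have moved with the genotype there, which the labels do not state.

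Guanylate-binding proteins and immunity-related GTPases are large GTP-hydrolysing proteins that cells make in response to interferon-gamma and, for most members, type I interferon. They gather on the membranes around intracellular bacteria and parasites, break these membranes open, and expose the microbe to autophagy proteins and inflammasomes. Interferons switch their genes on through short promoter sequences, the gamma-activated site and the interferon-stimulated response element, and interferon regulatory factors bind the response element. Irf8 is an interferon regulatory factor of myeloid cells that binds DNA mostly together with a partner, either PU.1 on Ets-IRF composite elements or IRF1 on interferon-stimulated response elements.

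The promoter windows of 4 members are shown because the results below turn on these genes, and capitals mark the motif matches. They come from the RefSeq promoter table of build GRCm38.p6, which gives 250 bases before a listed start and 50 from it, printed on the strand of the gene. The windows of Gbp2b and Gbp3 begin less than 250 bases before the first base of the gene. Positions in these 2 windows thus count from a start other than that base. Gbp3 and Gbp5 were the members lowered in the most knockout populations, Gbp2b was lowered in a single one, and Irgm2 stands for the immunity-related GTPases. The windows lie at chr3:142594597-142594896 for Gbp2b, chr3:142559794-142560093 for the upstream one of 2 starts of Gbp3, chr3:142496684-142496983 for Gbp5 and chr11:58214727-58215026 for Irgm2, all on the plus strand.
Gbp2b: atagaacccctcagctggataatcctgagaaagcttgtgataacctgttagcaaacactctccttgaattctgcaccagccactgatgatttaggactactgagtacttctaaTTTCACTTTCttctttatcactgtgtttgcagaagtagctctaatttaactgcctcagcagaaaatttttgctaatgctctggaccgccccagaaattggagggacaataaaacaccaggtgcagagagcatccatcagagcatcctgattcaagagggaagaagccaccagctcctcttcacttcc
Gbp3: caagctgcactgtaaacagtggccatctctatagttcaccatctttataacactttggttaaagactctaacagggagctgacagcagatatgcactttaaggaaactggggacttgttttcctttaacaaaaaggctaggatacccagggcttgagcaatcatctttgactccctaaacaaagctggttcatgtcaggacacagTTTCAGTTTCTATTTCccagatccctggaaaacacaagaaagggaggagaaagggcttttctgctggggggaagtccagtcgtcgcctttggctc
Gbp5: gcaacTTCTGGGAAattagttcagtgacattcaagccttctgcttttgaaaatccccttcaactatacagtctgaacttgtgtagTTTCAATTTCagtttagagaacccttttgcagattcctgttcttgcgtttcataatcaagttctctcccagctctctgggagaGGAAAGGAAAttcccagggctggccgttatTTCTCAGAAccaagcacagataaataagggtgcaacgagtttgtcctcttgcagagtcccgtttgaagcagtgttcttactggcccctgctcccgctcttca
Irgm2: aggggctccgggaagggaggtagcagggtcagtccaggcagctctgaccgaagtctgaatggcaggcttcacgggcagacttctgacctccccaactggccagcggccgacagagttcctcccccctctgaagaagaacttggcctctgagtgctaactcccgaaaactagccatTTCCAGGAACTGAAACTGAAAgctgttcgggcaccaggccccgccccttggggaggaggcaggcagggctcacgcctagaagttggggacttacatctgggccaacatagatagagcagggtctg

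The interferon-stimulated response element was searched as GAAANNGAAA on both strands and was found in 3.44% of 32851 promoter windows of the mouse. It was found in windows of all 8 members searched, Gbp2, Gbp2b, Gbp3, Gbp5, Gbp7, Irgm1, Irgm2 and Igtp, in 8 of their 9 windows. Gbp3 and Irgm1 each had 2 overlapping matches, and the second window of Gbp3 had none. In the printed windows the match begins at position -137 from the start in Gbp2b, -45 and -39 in Gbp3, -165 in Gbp5 and -64 in Irgm2. The gamma-activated site, searched as the palindrome TTCNNNGAA, was found in 8.3% of windows and in 4 members, Gbp5, Gbp7, Irgm2 and Igtp. The Ets-IRF composite element, GGAANNGAAA on both strands, was found in 2.72% of windows and in Gbp5, Irgm2 and Igtp, and the reverse arrangement GAAANNGGAA in 2.8% of windows and in Gbp7. In Irgm2 the capitals are a gamma-activated site at -75, an Ets-IRF element at -70 and the interferon-stimulated response element at -64, each overlapping the next. Irgm2 and Igtp are neighbours on chromosome 11, and their windows matched at 244 bases in an alignment of 335 columns, so their matches are not separate observations. A match describes the letters of these windows and says nothing about binding. The table holds no window for Gbp6, and Iigp1, on chromosome 18, was left out of the search.

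Gbp2, Gbp2b, Gbp3, Gbp5 and Gbp7 lie in 1 cluster on chromosome 3, Gbp6 on chromosome 5, Irgm1, Irgm2 and Igtp on chromosome 11 and Iigp1 on chromosome 18. Members of these families share sequence, so signal from a close relative cannot be told apart from that of the named gene. Log2 levels are given for each gene on its own probe, and no level is set against that of another gene. In bulk samples, fewer cells of a type and less RNA per cell cannot be told apart.

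Wild-type adult Kupffer cells had the highest mean of 4 tested members, Gbp2b, Gbp3, Gbp7 and Iigp1. Irgm1 and Gbp5 were highest in wild-type adult liver CD11bhigh macrophages, and Irgm2 and Igtp in knockout adult kidney F4/80high macrophages. At the other end, the E8 progenitors had the lowest mean of Gbp3, Gbp7, Irgm1, Irgm2 and Igtp, and wild-type Langerhans cells came next above them for Gbp7, Irgm1, Irgm2 and Igtp. The plot of all samples shows these orders.

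**Figure D1:**
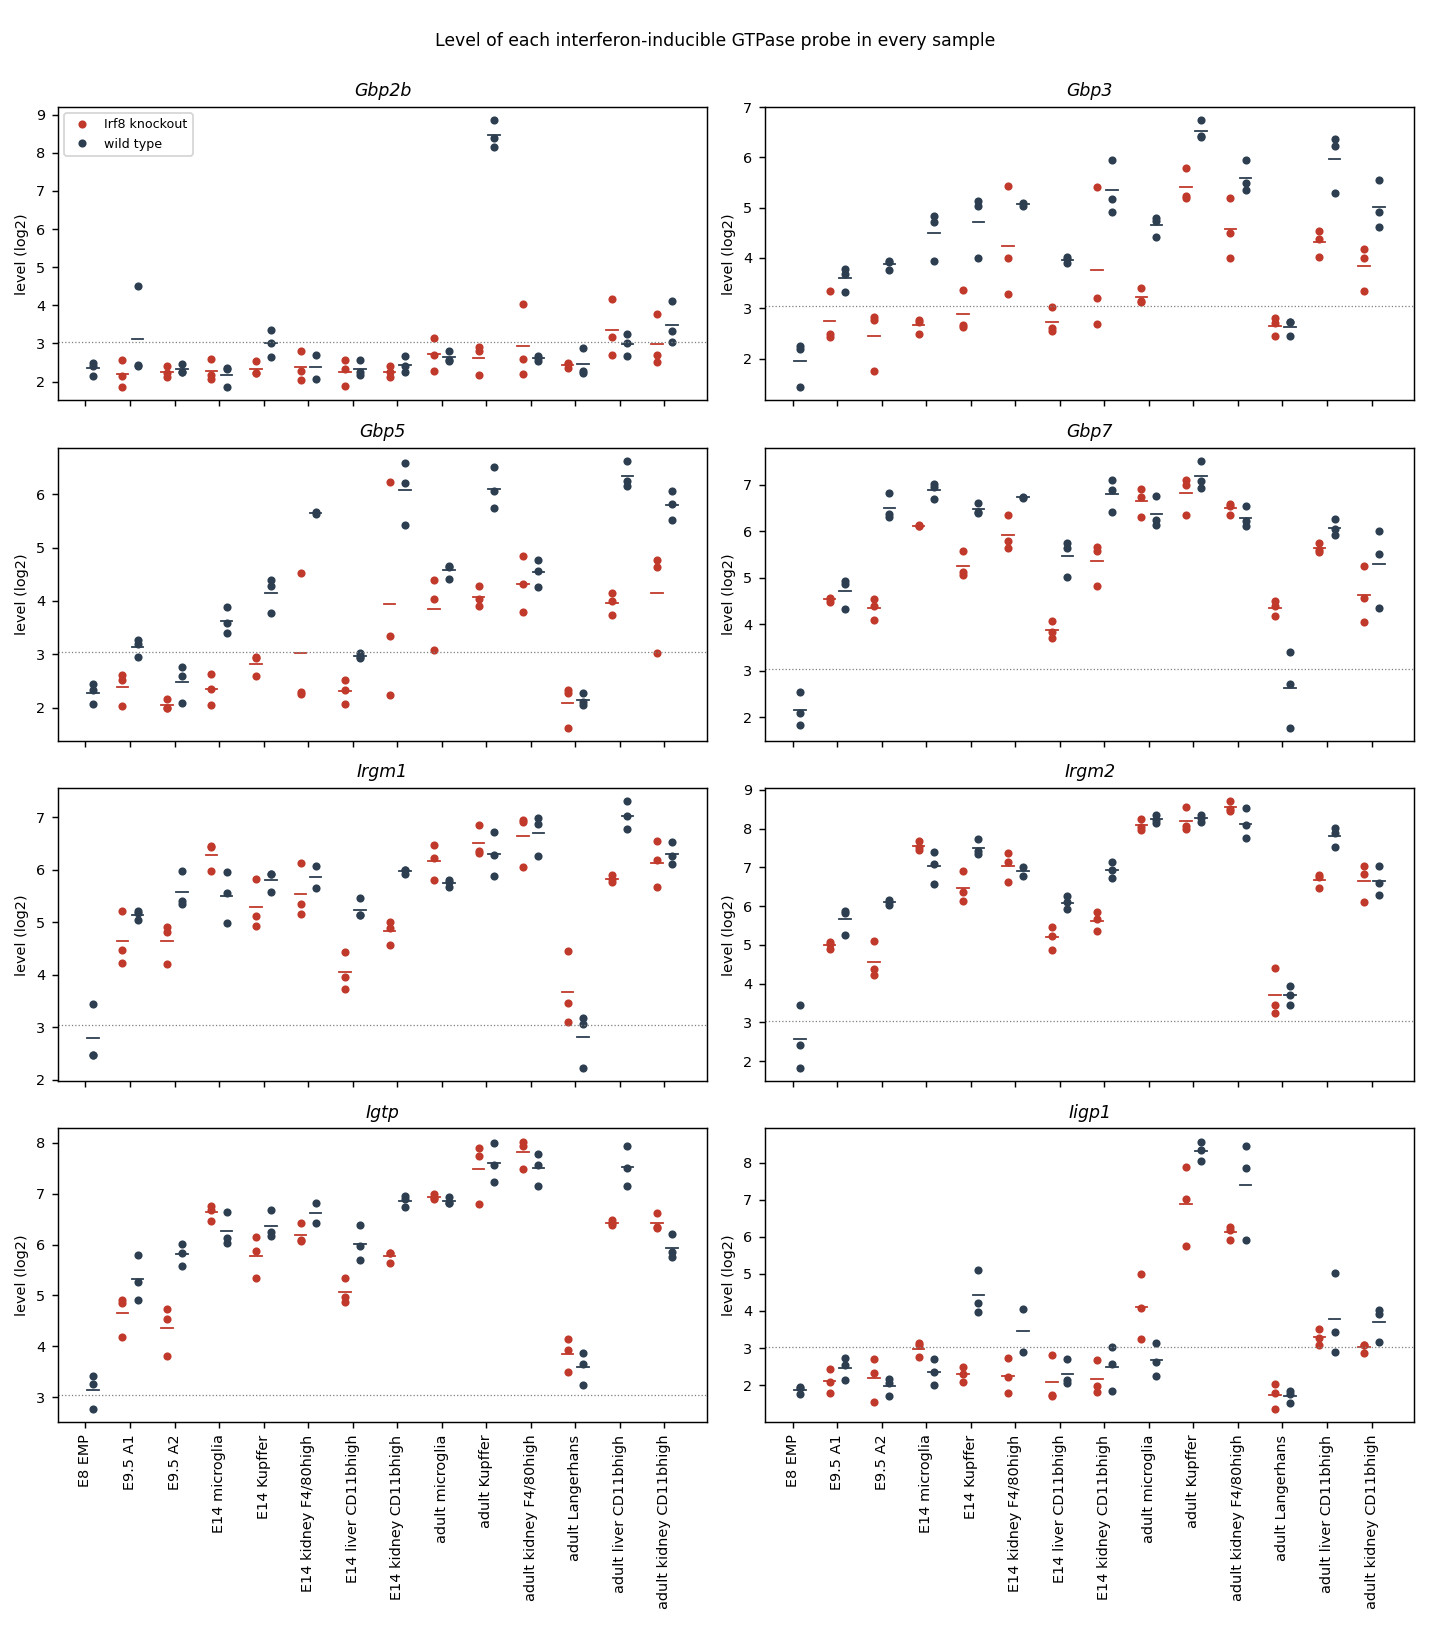
Log2 level (vertical axis) of each tested member in every sample, by population (horizontal axis), with knockout samples in red left of wild-type samples in dark blue, a short line for each group mean, and a dotted line at the floor of 3.04. Gbp2b stands above 8 in the 3 wild-type adult Kupffer samples and at or below 4.50 in the other 77, while Irgm1, Irgm2 and Igtp have their lowest means in E8 progenitors and Langerhans cells.

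Gbp2b, a guanylate-binding protein that binds to vacuoles of intracellular pathogens, was at 8.38, 8.85 and 8.15 in wild-type adult Kupffer cells. In the other 77 samples it ran between 1.86 and 4.50, and 10 of them passed the floor. The next means, 3.49 ± 0.56 in wild-type adult kidney CD11bhigh and 3.35 ± 0.75 in knockout adult liver CD11bhigh macrophages, did not differ beyond their spread (SD, n = 3). Iigp1, the effector that assembles on the parasite vacuole, had a similar order at the top, with 8.31 ± 0.26 in wild-type adult Kupffer cells, 7.40 ± 1.33 in wild-type and 6.12 ± 0.19 in knockout adult kidney F4/80high macrophages, and 6.89 ± 1.06 in knockout adult Kupffer cells. The samples of these groups overlapped except between the adult Kupffer genotypes and between wild-type Kupffer and knockout kidney F4/80high cells. Below them came wild-type E14 Kupffer cells at 4.43 ± 0.59 and knockout adult microglia at 4.11 ± 0.87, and 17 of the 27 group means were under the floor.

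Gbp3 ran between 6.52 ± 0.18 in wild-type adult Kupffer cells and 1.96 ± 0.46 in E8 progenitors. Wild-type adult liver CD11bhigh (5.96 ± 0.59) and wild-type adult kidney F4/80high macrophages (5.60 ± 0.31) followed and overlapped. Gbp5, which promotes assembly of the NLRP3 inflammasome in mouse macrophages, was at 6.34 ± 0.25 in wild-type adult liver CD11bhigh, 6.10 ± 0.39 in wild-type adult Kupffer and 6.07 ± 0.60 in wild-type E14 kidney CD11bhigh cells. These 3 groups did not differ beyond their spread, and 11 of the 27 group means lay under the floor, those of Langerhans cells and E8 progenitors among them. Gbp7, linked in the mouse to the phagocyte oxidase, was broader, with 25 of the 27 group means above the floor. Only E8 progenitors, at 2.16 ± 0.35, and wild-type Langerhans cells, at 2.63 ± 0.81, were under the floor.

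Irgm1, Irgm2 and Igtp are the regulatory members, which sit on the membranes of the cell and keep the effectors inactive there. Irgm2 was at 8.56 ± 0.13 in knockout adult kidney F4/80high macrophages, and its next 5 means, all of adult Kupffer cells, microglia and kidney F4/80high macrophages, were between 8.10 and 8.27 with overlapping samples. It was at 3.70 ± 0.61 in knockout and 3.70 ± 0.24 in wild-type Langerhans cells and at 2.57 ± 0.82 in E8 progenitors. Igtp ran between 7.82 ± 0.29 in knockout adult kidney F4/80high macrophages and 3.15 ± 0.33 in E8 progenitors, and Irgm1 between 7.03 ± 0.27 in wild-type adult liver CD11bhigh macrophages and 2.79 ± 0.56 in E8 progenitors. Over the 80 samples, Irgm2 and Igtp correlated at r = 0.946, Irgm1 and Igtp at 0.909 and Gbp3 and Gbp5 at 0.853, while Gbp2b correlated with the others at 0.265 to 0.588. These correlations are across samples that share groups and are given as a description.

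The knockout comparison asks which of these genes depend on Irf8 in which macrophages. Of the 104 pairs of a tested member and a population, 35 were lower in the knockout, 3 were higher and 66 did not pass the test (limma, two-sided, adjusted p under 0.05 over 17099 genes). Over all genes, 6.58% of pairs were lower and 6.35% higher. The median change of the members over these pairs was -0.62 log2, against -0.01 for all genes. The labels do not say which samples came from separate animals, so the p-values measure the spread between these samples. Xist had the same order over the sample numbers in E14 microglia, Kupffer cells and liver CD11bhigh macrophages of each genotype. Counts over these populations are therefore not taken as counts of separate observations.

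In the embryo, the members fell most in 4 populations. In A2 progenitors 5 of 8 were lower (6.28% of all genes were), with a median of -1.18 log2 against 0.03 for all genes. In E14 Kupffer cells 5 were lower (9.81% of all genes), with a median of -1.12 against 0.03. In E14 liver CD11bhigh macrophages 5 were lower (8.29%), with a median of -0.93 against -0.02, and in E14 kidney CD11bhigh macrophages 6 (8.05%), with a median of -1.23 against -0.03. E14 microglia had 2 lower (5.98%), but only 3 of 8 means were below the wild type, with a median of 0.24 against 0.03. Irgm1 (0.785), Iigp1 (0.63) and Irgm2 (0.531) had higher means there and Gbp7 a lower one (-0.765), and none of these 4 passed the test. Their samples did not overlap, but no share of all genes without overlap is given here. Both Iigp1 means, 2.99 in the knockout and 2.36 in the wild type, were under the floor. In E14 microglia 5 members had an unadjusted p under 0.05 in limma's test. E14 kidney F4/80high macrophages had 1 lower (1.38%), with a median of -0.62 against -0.005. In A1 none of the 8 passed limma's test, with all 8 means below the wild type, 4 members at an unadjusted p under 0.05, and 3.36% of all genes called. With array weights 3 members passed there. The 3.36% is the share at the adjusted threshold without array weights. No share of all genes is given for counts by unadjusted p or with array weights, here or below, and these counts are not read as results about the members.

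In adults, liver CD11bhigh macrophages had 5 of 8 members lower (7.56% of all genes), with a median of -1.11 log2 against -0.02. Kupffer cells had 3 lower (7.39%) and kidney CD11bhigh macrophages 2 (6.7%). Microglia had 1 lower (8.71%) and 1 higher (5.85%), and their median member change was 0.08. Langerhans cells had 2 higher (16.6%) and none lower, and these 2 were the only members with an unadjusted p under 0.05 there. In kidney F4/80high macrophages none passed limma's test, where 3.56% of all genes were called. There 2 members had an unadjusted p under 0.05, and 1 passed with array weights.

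**Figure D2:**
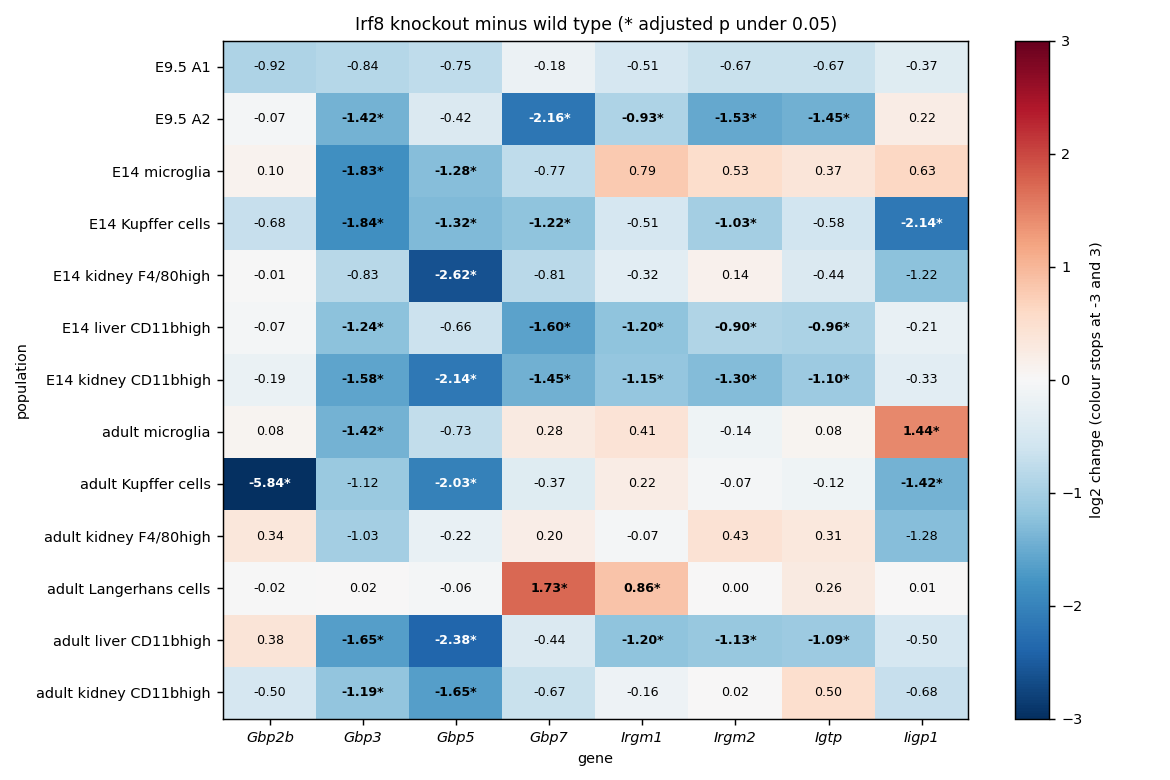
Log2 change, Irf8 knockout minus wild type, of each tested member (columns) in each population (rows), with an asterisk and bold type where the adjusted p was under 0.05. Gbp3 and Gbp5 are lower in the most populations, 8 and 7 of 13, the Gbp2b change of -5.84 stands in adult Kupffer cells alone, and Langerhans cells and adult microglia hold the 3 values called higher.

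Gbp3 was lower in 8 of the 13 knockout populations, and 0.439% of all tested genes were called lower in as many. In E14 microglia it was at 2.48, 2.73 and 2.77 in the knockout, against 3.94, 4.84 and 4.71 in the wild type. In adult microglia it was at 3.14, 3.41 and 3.13 in the knockout, against 4.42, 4.79 and 4.73 in the wild type. At both ages every knockout sample lay below every wild-type sample, and the changes were -1.83 ± 0.40 (SE, adjusted p = 0.00058) and -1.42 ± 0.40 (adjusted p = 0.0084). In E14 Kupffer cells it was at 2.62, 3.37 and 2.66 in the knockout, against 3.997, 5.13 and 5.03 in the wild type, a change of -1.84 ± 0.40 (adjusted p = 0.00034). Knockout means of Gbp3 were under the floor in A2 (2.45), E14 microglia (2.66), E14 Kupffer cells (2.88) and E14 liver CD11bhigh macrophages (2.725). The falls there may be compressed.

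In adult liver CD11bhigh macrophages Gbp3 was at 4.38, 4.54 and 4.01 in the knockout, against 5.29, 6.38 and 6.22 in the wild type (-1.65 ± 0.40, adjusted p = 0.0015). The genotypes did not overlap there, nor in A2 (-1.42 ± 0.40), E14 liver CD11bhigh (-1.24 ± 0.40) and adult kidney CD11bhigh macrophages (-1.19 ± 0.40), which were also called. They did overlap in E14 kidney CD11bhigh macrophages, the remaining population called, at -1.58 ± 0.40. In adult Kupffer cells it was at 5.20, 5.23 and 5.79 in the knockout, against 6.41, 6.74 and 6.43 in the wild type, without overlap, but the change of -1.12 ± 0.40 missed the threshold (adjusted p = 0.057). In Langerhans cells, where Gbp3 was under the floor in every sample, the change was 0.02. The call in E14 liver was lost when any of 5 of its 6 samples was left out and under median centring. That in A2 was lost without knockout replicate 3 (-1.07, adjusted p = 0.154). The call in adult kidney CD11bhigh macrophages was lost without knockout replicate 2 or wild-type replicate 2. It was also lost with array weights and in a fit of the compared groups alone.

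Gbp5 was lower in 7 knockout populations, a number that 0.813% of all tested genes reached, and its mean was below the wild type in all 13. In adult Kupffer cells it was at 4.04, 3.90 and 4.28 in the knockout, against 6.06, 6.51 and 5.74 in the wild type. In adult liver CD11bhigh macrophages it was at 4.15, 3.75 and 4.001 in the knockout, against 6.16, 6.62 and 6.25 in the wild type. Neither pair of groups overlapped, and the changes were -2.03 ± 0.46 (adjusted p = 0.0012) and -2.38 ± 0.46 (adjusted p = 4.9e-05). In E14 Kupffer cells the change was -1.32 ± 0.46, in E14 microglia -1.28 ± 0.46 and in adult kidney CD11bhigh macrophages -1.65 ± 0.46. The first was lost without any of 4 of the 6 samples. The second was lost without any of the 6, with a block for the replicate number, under quantile normalization and with no floor. The third was lost without knockout replicate 3 (-1.09, adjusted p = 0.155) and with array weights (adjusted p = 0.092). It was also lost in a fit of the compared groups alone (adjusted p = 0.17). Knockout means of Gbp5 were under the floor in E14 Kupffer cells (2.83), E14 microglia (2.34) and E14 kidney F4/80high macrophages (3.03), so the falls there may be compressed.

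The E14 kidney set 1 pair of knockout libraries apart. In E14 kidney CD11bhigh macrophages Gbp5 was at 2.24, 3.35 and 6.22 in the knockout, against 6.21, 5.42 and 6.59 in the wild type. Gbp3 was at 3.21, 2.68 and 5.41 in the knockout, against 5.18, 4.92 and 5.94 in the wild type. Replicate 3 of the knockout thus lay inside the wild-type range for both genes, and the other 2 below it.

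In E14 kidney F4/80high macrophages Gbp5 was at 2.27, 2.30 and 4.53 in the knockout, against 5.63 and 5.66 in the wild type, and Gbp3 at 3.29, 3.997 and 5.44 in the knockout, against 5.04 and 5.10. Here too the knockout replicate numbered 3 was the highest, and for Gbp3 it lay above the wild type. The sample titles number the knockout samples of both gates alike, and the labels do not say whether same-numbered samples share an animal. Xist, the RNA of the inactive X chromosome, was at 9.33, 5.01 and 8.05 in knockout CD11bhigh and at 9.53, 5.17 and 8.44 in knockout F4/80high macrophages, and the Y-linked gene Eif2s3y at 4.89, 7.45 and 6.83 and at 5.66, 7.57 and 7.15. Both genes had the same order over the 3 numbers in both gates, and the gates are not counted as separate observations of the split. Ifnb1, the gene of interferon-beta, followed the same split, at 1.61, 2.51 and 7.34 in knockout CD11bhigh macrophages, against 8.28, 8.20 and 9.12 in the wild type. In the F4/80high gate it was at 1.78, 4.09 and 8.53 in the knockout, against 7.62 and 7.88 in the wild type. So did Cxcl10, a chemokine gene induced by interferons, at 6.89, 6.26 and 9.68 in knockout CD11bhigh macrophages, against 9.75, 9.69 and 10.11 in the wild type.

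The other members called in the CD11bhigh gate did not set replicate 3 apart. Irgm1 was at 5.01, 4.90 and 4.56 in the knockout, against 5.93, 6.00 and 6.00 in the wild type, and Irgm2 at 5.36, 5.86 and 5.66, against 6.92, 6.73 and 7.13. Replicate 3 lay with the other knockout samples for both. In the CD11bhigh gate the Gbp3 change was -1.58 ± 0.40 (adjusted p = 0.0034) with replicate 3 and -2.40 (adjusted p = 2.3e-06) without it. That of Gbp5 was -2.14 ± 0.46 (adjusted p = 0.00045) with it and -3.28 (adjusted p = 2.3e-09) without it, and 6 members were called either way. The Gbp3 call was lost without knockout replicate 1 or 2 or wild-type replicate 3, and the Gbp5 call without knockout replicate 1. Knockout replicate 3 of this gate also stood apart in marker means, with neutrophil markers at 10.41, 10.29 and 8.93 and macrophage markers at 7.14, 7.30 and 8.22 in the 3 knockout samples, against 7.83, 7.04 and 5.25 and 9.09, 9.02 and 9.03 in the wild type, and the part of this was not tested. In the F4/80high gate the Gbp5 change was -2.62 ± 0.51 (adjusted p = 0.00084) with replicate 3 and -3.37 (adjusted p = 5.3e-06) without it. In a fit of the compared groups alone, Gbp3 and Gbp5 did not pass in the CD11bhigh gate (adjusted p = 0.20 and 0.19), nor Gbp5 in the F4/80high gate (adjusted p = 0.10).

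**Figure D3:**
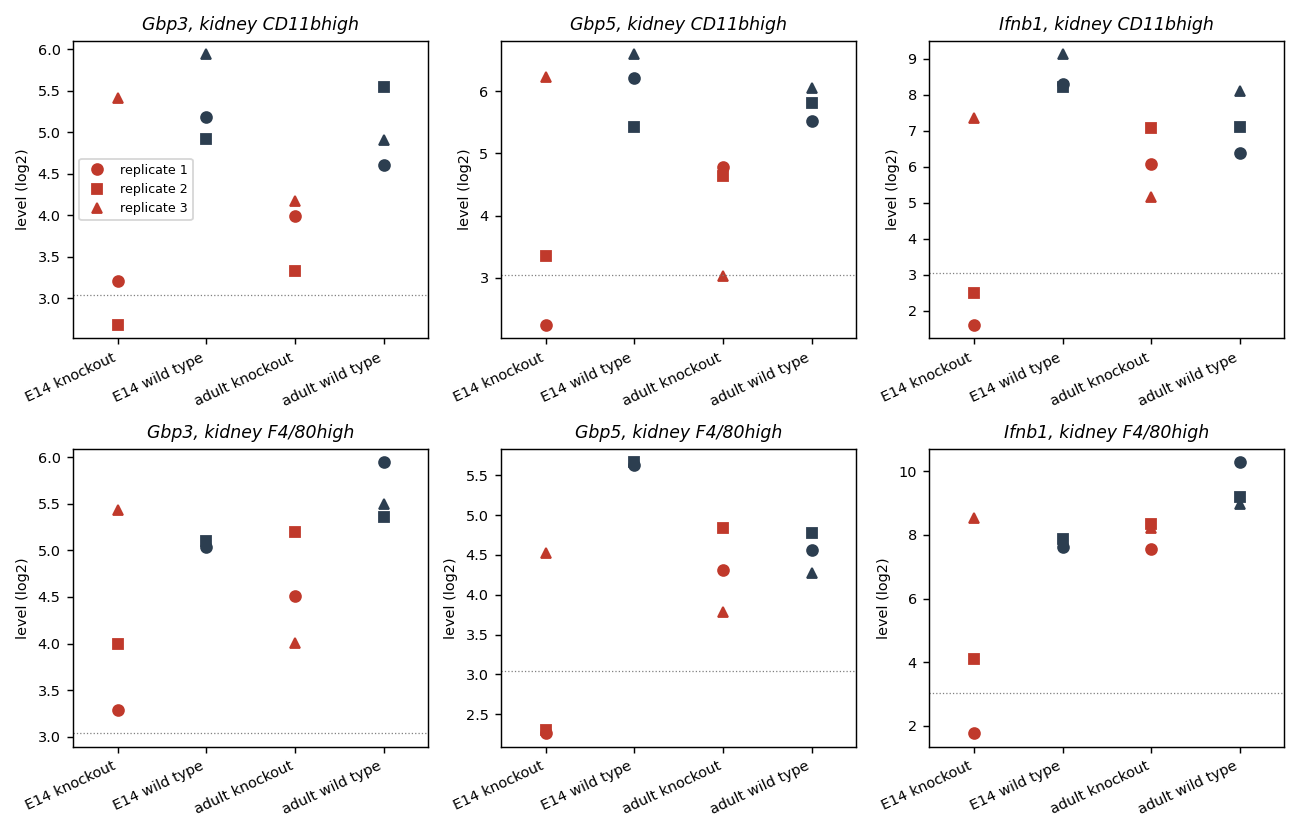
Log2 levels (vertical axis) of Gbp3, Gbp5 and Ifnb1 in kidney CD11bhigh (upper row) and F4/80high macrophages (lower row), at E14 and in adults, knockout in red left of wild type in dark blue, with a marker shape for each replicate number and a dotted line at the floor of 3.04. Among E14 knockout samples the triangle, replicate 3, stands above the other 2 in all 6 panels, with Ifnb1 at 7.34 and 8.53.

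Ifnb1 itself was high in kidney macrophages and near the bottom of the scale elsewhere. In the 57 samples from other tissues it ran between 1.34 and 2.29, with a median of 1.67, and in the 23 kidney samples between 1.61 and 10.28, with a median of 7.62. Adult kidney F4/80high macrophages had 7.57, 8.33 and 8.23 in the knockout, against 10.28, 9.20 and 8.97 in the wild type, and adult kidney CD11bhigh macrophages 6.08, 7.07 and 5.16, against 6.37, 7.11 and 8.09. Only the E14 changes passed the test, -4.71 ± 0.74 in CD11bhigh (adjusted p = 1.9e-06) and -2.95 ± 0.83 in F4/80high macrophages (adjusted p = 0.039). The adult kidney values were looked at after those of E14 were seen. The part of these Ifnb1 levels in the Gbp3 and Gbp5 levels was not tested.

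Gbp7 was lower in 4 knockout populations, a number that 5.08% of all tested genes reached, and higher in 1. In A2 it was at 4.40, 4.10 and 4.55 in the knockout, against 6.31, 6.84 and 6.38 in the wild type, the largest fall of the gene at -2.16 ± 0.29 (adjusted p = 3.6e-08). In E14 liver CD11bhigh macrophages it was at 3.83, 3.71 and 4.07 in the knockout, against 5.64, 5.76 and 5.01 in the wild type (-1.60 ± 0.29, adjusted p = 3.3e-05). E14 kidney CD11bhigh macrophages (-1.45 ± 0.29) and E14 Kupffer cells (-1.22 ± 0.29) were also lower, and no genotypes overlapped in these 4. No adult population was called lower for Gbp7. In Langerhans cells it was at 4.39, 4.51 and 4.17 in the knockout, against 3.40, 2.72 and 1.78 in the wild type, a rise of 1.73 ± 0.29 (adjusted p = 2.4e-06) without overlap.

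Irgm2 was lower in 5 knockout populations (2.89% of all tested genes reached this number), and Irgm1 and Igtp in 4 each. The 3 genes fell together in A2, in both CD11bhigh macrophages of E14 and in adult liver CD11bhigh macrophages. In A2 Irgm2 was at 5.11, 4.21 and 4.38 in the knockout, against 6.10, 6.03 and 6.17 in the wild type (-1.53 ± 0.27, adjusted p = 1.4e-05). Igtp was at 4.74, 4.53 and 3.82 in the knockout, against 6.01, 5.58 and 5.84 in the wild type (-1.45 ± 0.25, adjusted p = 1.3e-05). Irgm1 fell by 0.93 there (adjusted p = 0.034), a call lost under quantile normalization, under median centring and without any of 3 samples. Irgm2 also fell in E14 Kupffer cells, by 1.03 (adjusted p = 0.0024).

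In adult liver CD11bhigh macrophages Irgm1 was at 5.82, 5.76 and 5.90 in the knockout, against 6.77, 7.30 and 7.02 in the wild type, and no samples overlapped. The changes were -1.20 ± 0.30 for Irgm1 (adjusted p = 0.0021), -1.13 ± 0.27 for Irgm2 (adjusted p = 0.00096) and -1.09 ± 0.25 for Igtp (adjusted p = 0.00067). In the E14 kidney CD11bhigh gate the 3 changes ran from -1.10 to -1.30, and in the E14 liver CD11bhigh gate from -0.90 to -1.20. In the E14 liver the Irgm2 and Igtp calls were lost without wild-type replicate 1, and that of Irgm2 also without knockout replicate 1 and under median centring. In the resident adult macrophages the regulatory members did not pass the test, with changes of -0.07 to 0.43 in kidney F4/80high, -0.12 to 0.22 in Kupffer cells and -0.14 to 0.41 in microglia. In Langerhans cells Irgm1 was at 4.45, 3.46 and 3.10 in the knockout, against 2.22, 3.17 and 3.05 in the wild type. The groups overlapped, and the rise of 0.86 ± 0.30 (adjusted p = 0.025) was lost without replicate 1 of either genotype, at 0.47 and 0.56, and under median centring, at 0.58. It was also lost in a fit of the compared groups alone (adjusted p = 0.103).

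Iigp1 moved in both directions. In E14 Kupffer cells it was at 2.09, 2.50 and 2.31 in the knockout, against 3.98, 5.11 and 4.22 in the wild type, so it was under the floor in all knockout samples and above it in all wild-type samples (-2.14 ± 0.44, adjusted p = 0.00014). In adult Kupffer cells it was at 7.03, 5.76 and 7.88 in the knockout, against 8.34, 8.56 and 8.04 in the wild type, with a knockout spread that reached close to the wild type. The change of -1.42 ± 0.44 (adjusted p = 0.023) was lost without knockout replicate 2 (-0.86, adjusted p = 0.32), without wild-type replicate 1 or 2, and with array weights (-1.16, adjusted p = 0.414). It was also lost in a fit of the compared groups alone (adjusted p = 0.206). In adult microglia it was at 3.25, 4.08 and 4.995 in the knockout, against 2.63, 2.25 and 3.13 in the wild type. The rise of 1.44 ± 0.44 (adjusted p = 0.016) was lost without knockout replicate 3 (1.00, adjusted p = 0.20) or wild-type replicate 2 (1.23, adjusted p = 0.10).

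Gbp2b was called in adult Kupffer cells alone. It was at 2.18, 2.80 and 2.90 in the knockout, all under the floor, against 8.38, 8.85 and 8.15 in the wild type, a change of -5.84 ± 0.36 (adjusted p = 7.6e-20). The difference between the genotypes was far larger than the spread within either. In the other 12 populations its change ran from -0.92 to 0.38 and none passed the test, with most levels under the floor.

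Other markers moved with genotype in the same samples, and their part in the changes of the members was not tested. The mean of 11 neutrophil markers was 10.3 to 10.6 in knockout and 5.81 to 7.62 in wild-type adult liver CD11bhigh macrophages. It was 8.49 to 9.18 in knockout and 3.76 to 5.19 in wild-type adult kidney CD11bhigh macrophages, 8.93 to 10.4 and 5.25 to 7.83 in those of the E14 kidney, and 10.6 in all 3 knockout samples and 9.61 to 9.82 in the wild type of the E14 liver. E14 microglia had 8.84 to 9.26 in the knockout and 3.77 to 7.11 in the wild type. The mean of 7 macrophage markers was lower in the same gates, for example 6.97 to 7.26 in knockout and 8.29 to 8.59 in wild-type adult liver CD11bhigh macrophages, and 6.49 to 6.89 in knockout and 8.29 to 8.55 in wild-type A2. In A2 progenitor markers were at 5.91 to 6.52 in the knockout and 5.18 to 5.65 in the wild type, and neutrophil markers overlapped, at 4.61 to 5.05 in the knockout and 3.84 to 5.40 in the wild type.

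Both microglia populations, in which Gbp3 was called lower, had less of the microglia markers in the knockout, without overlap. The mean of these 5 markers was 8.54 to 8.86 in knockout and 10.45 to 10.52 in wild-type adult microglia, and 7.77 to 8.13 in the knockout and 9.80 to 9.95 in the wild type at E14. Macrophage markers were at 9.75 to 9.92 in knockout and 10.36 to 10.48 in wild-type adult microglia, and at 9.21 to 9.33 in the knockout and 10.14 to 10.24 in the wild type at E14.

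In E14 Kupffer cells the mean of 5 Kupffer cell markers was 6.13 to 6.78 in the knockout and 8.94 to 9.14 in the wild type. Macrophage markers were at 7.57 to 7.98 in the knockout and 8.87 to 9.17 in the wild type there, and 5 progenitor markers at 7.33 to 7.61 in the knockout and 5.68 to 6.41 in the wild type. So markers of both macrophage kinds were lower, and progenitor markers higher, in the knockout samples in which 5 members were called lower. In adult Kupffer cells it was 9.29 to 9.86 in the knockout and 9.97 to 10.3 in the wild type, and 10 endothelial markers averaged 7.45 to 7.85 in the knockout and 5.26 to 6.95 in the wild type. The adult Kupffer genotypes also differed in sex-linked genes, with Xist at 9.53 to 9.99 in the knockout and 2.71 to 3.88 in the wild type, so genotype and sex cannot be told apart for Gbp2b, Gbp5 and Iigp1 there. In adult microglia the wild type was mixed in Xist, at 2.99, 10.17 and 10.36. In Langerhans cells Eif2s3y was at 4.87, 4.93 and 7.57 in the knockout, against 1.62, 2.68 and 1.31 in the wild type (3.92 ± 1.27, adjusted p = 0.0144), and Xist at 9.69, 9.54 and 7.70 in the knockout, against 9.77, 9.91 and 10.30 in the wild type. Sex-linked levels thus moved with genotype there too, beside the rises of Gbp7 and Irgm1. Langerhans cells held 5 keratinocyte markers at 8.46 to 8.74 in the knockout and 7.11 to 7.33 in the wild type, and the 3 Langerhans cell markers at 9.86 to 10.1 in the knockout and 9.39 to 9.67 in the wild type.

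Ifng, the gene of interferon-gamma, is made by T and NK cells and was measured beside the members. In adult kidney CD11bhigh macrophages it was at 2.15, 2.11 and 2.39 in the knockout, against 4.40, 3.48 and 5.12 in the wild type (-2.12 ± 0.35, adjusted p = 7.2e-06). It was also lower in knockout adult kidney F4/80high (-1.13 ± 0.35, adjusted p = 0.049) and adult liver CD11bhigh macrophages (-0.99 ± 0.35, adjusted p = 0.0355). The mean of 10 T and NK cell markers was 3.49 to 4.35 in knockout and 5.62 to 6.22 in wild-type adult kidney CD11bhigh macrophages. In adult kidney F4/80high macrophages it was 3.39 to 4.43 in the knockout and 4.65 to 4.93 in the wild type, and no member passed the test there. In adult liver CD11bhigh macrophages, where 5 members were called lower, this mean overlapped. It was 5.18 to 6.47 in the knockout and 6.25 to 6.73 in the wild type. In adult Kupffer cells Ifng overlapped, at 2.14, 4.86 and 4.45 in the knockout and 3.57, 4.32 and 3.82 in the wild type. At E14 and E9.5 Ifng was under the floor in every wild-type sample and in all but 2 knockout samples, both of the E14 kidney CD11bhigh gate. It was at 2.94, 4.08 and 3.07 in the knockout there, against 2.51, 2.83 and 2.35 in the wild type, a change of 0.80 ± 0.35 that missed the threshold (adjusted p = 0.121). T and NK cell markers of that gate, in which 6 members were lower, were at 3.23 to 3.84 in the knockout and 2.72 to 2.96 in the wild type.

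The genes around the members were counted over the 13 knockout comparisons. Over all genes, 6.58% of gene and population pairs were lower and 6.35% higher. Of all tested genes, 0.439% were called lower in at least 8 populations, 0.813% in at least 7 and 2.89% in at least 5. Of 12 other interferon-inducible GTPases 7 were tested, and 28 of their 91 gene and population pairs were lower (30.8%) and 2 higher (2.2%). Mx1, an antiviral GTPase, was lower in 8 populations and Mx2 in 7, most strongly in adult liver CD11bhigh macrophages (-2.42 and -2.31 log2). Gbp9 was lower in 5, among them E14 kidney CD11bhigh macrophages (-2.36), E14 Kupffer cells (-2.30) and A2 (-2.11). Gbp8 was lower in E14 Kupffer cells (-2.89) and E14 kidney CD11bhigh macrophages (-2.56). Both higher values were in adult microglia, where Iigp1 was higher as well, Gbp8 by 2.13 (adjusted p = 0.0019) and Gbp4 by 1.25 (adjusted p = 0.023).

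Of 17 genes of interferon reception and signalling 16 were tested, and 56 of 208 pairs were lower (26.9%) and 13 higher (6.25%). The share of higher pairs was near the 6.35% of all genes. Stat2, which joins Irf9 in the complex that binds interferon-stimulated response elements, was lower in 7 populations, with -1.74 in E14 Kupffer cells, and higher in adult microglia (0.99). Irf9 was lower in E14 Kupffer cells (-1.30), E14 liver (-1.21) and kidney CD11bhigh macrophages (-1.17) and A2 (-1.05). Ifngr2, a chain of the interferon-gamma receptor, was lower in 7, with -1.13 in A1 and in adult liver CD11bhigh macrophages. Irf1 was lower in E14 kidney and adult liver CD11bhigh macrophages (-1.14 each) and narrowly in adult Kupffer (-0.65, adjusted p = 0.0499) and adult kidney CD11bhigh cells (-0.64, adjusted p = 0.0491). In Langerhans cells Irf1 was at 7.41, 7.23 and 7.45 in the knockout, against 5.64, 5.57 and 5.61 in the wild type (1.76 ± 0.23, adjusted p = 4.3e-09), and Ifngr1 was higher by 2.52.

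Of 18 other genes induced by interferon-gamma 17 were tested, and 52 of 221 pairs were lower (23.5%) and 8 higher (3.62%). Tap1, which carries peptides to MHC class I, was lower in 9 populations, with -1.64 in E14 Kupffer cells and -1.44 in E14 liver CD11bhigh macrophages. The chemokine gene Cxcl9 was at 5.50, 5.29 and 5.28 in knockout adult liver CD11bhigh macrophages, against 9.81, 9.89 and 9.65 in the wild type, a change of -4.43. Casp1, an inflammasome protease, was lower in 7 populations, with -3.96 in A2. Of 14 genes of autophagy and inflammasomes that act with the GTPases, Casp1 counted again, all were tested. Of their 182 pairs, 33 were lower (18.1%) and 8 higher (4.4%). Rnf213 (-1.64 in E14 kidney CD11bhigh macrophages) and Casp4 (-1.92 in A2) were each lower in 6 populations, and Rnf213 was higher in adult microglia. Of the 5 genes of interferons and of cytokines that induce them, 12 of 65 pairs were lower (18.5%) and 4 higher (6.15%, near the share of all genes). Il18 was lower in 6 populations, among them A2 (-2.72).

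The knockout effect on a member was then compared between populations. Between adult microglia and adult Kupffer cells, 2 members differed (6.65% of all genes had a larger value in microglia), Gbp2b by 5.91 ± 0.51 and Iigp1 by 2.86 ± 0.62. Between adult microglia and adult kidney F4/80high macrophages, Iigp1 differed by 2.72 ± 0.62 (3.82% of all genes in that direction). Between adult microglia and Langerhans cells, Gbp7 differed by -1.45 ± 0.41 (15.7%), a call lost without wild-type Langerhans replicate 3 (-1.02, adjusted p = 0.0618). The effect on Gbp2b in adult Kupffer cells differed from that in E14 Kupffer cells by -5.16 ± 0.51 (10.5%). Between adult and E14 microglia no member differed past the threshold, 1 at an unadjusted p under 0.05, while 10.5% of all genes did, and the difference for Gbp3 was 0.41 ± 0.57 (SE). The E14 knockout mean of Gbp3 was under the floor, so its E14 fall may be compressed. Between adult and E14 kidney F4/80high macrophages no member passed (1.04% of all genes did), with Gbp5 nearest at 2.40 ± 0.69 (adjusted p = 0.069).

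The wild-type groups were then compared across stages. E8 progenitors had Irgm2 at 1.82, 2.42 and 3.45, A1 cells at 5.27, 5.88 and 5.83 and A2 cells at 6.10, 6.03 and 6.17. A1 lay wholly above E8, and A2 above A1. Against E8, A1 cells were higher in 5 of 8 members (12.8% of all genes), Irgm2 by 3.10 ± 0.27, Gbp7 by 2.56 ± 0.29, Irgm1 by 2.35 ± 0.30, Igtp by 2.17 ± 0.25 and Gbp3 by 1.64 ± 0.40. In A2 against A1 only Gbp7 passed the test, higher by 1.80 ± 0.29 (5.67% of all genes). Macrophage markers moved with this step, at 2.96 to 3.16 in E8 progenitors, 6.01 to 6.54 in A1 and 8.29 to 8.55 in A2.

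**Figure D4:**
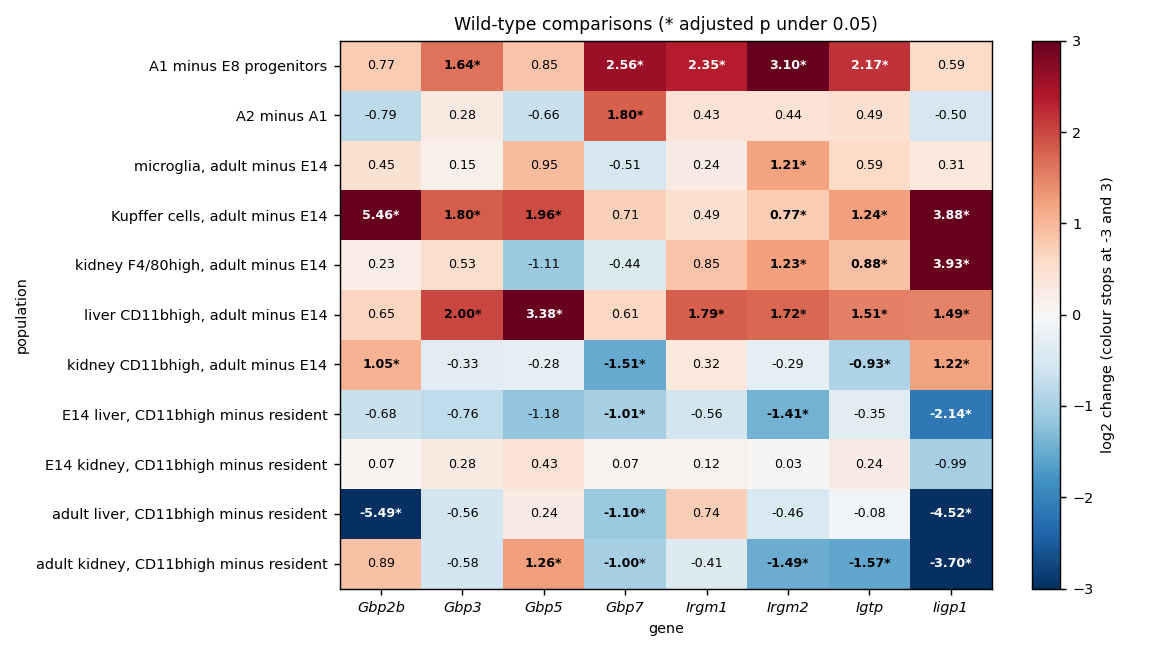
Log2 change of each tested member (columns) between wild-type groups (rows), first-named minus second-named group, with an asterisk and bold type where the adjusted p was under 0.05. The upper rows give the yolk-sac steps, the middle rows adult minus E14, and the lower rows CD11bhigh minus resident macrophages of the same organ, where Iigp1 is lower in 3 of 4 comparisons.

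Between adults and E14, the liver populations had the most members called. Adult Kupffer cells were higher in 6 of 8 members (11.8% of all genes), Gbp2b by 5.46 ± 0.36, Iigp1 by 3.88 ± 0.44, Gbp5 by 1.96 ± 0.46, Gbp3 by 1.80 ± 0.40, Igtp by 1.24 ± 0.25 and Irgm2 by 0.77 ± 0.27, the last lost without any of 3 samples. Adult liver CD11bhigh macrophages were also higher in 6 (14%), and Gbp5 was at 6.16, 6.62 and 6.25 in adults, against 2.95, 2.94 and 3.02 at E14, where all samples were under the floor. The rises there were 3.38 ± 0.46 for Gbp5, 2.00 ± 0.40 for Gbp3 and 1.49 to 1.79 for Irgm1, Irgm2, Igtp and Iigp1, the last of these lost without adult replicate 2. Adult kidney F4/80high macrophages were higher in 3 (12.2%), with Iigp1 at 5.90, 8.45 and 7.85 in adults, against 4.05 and 2.89 at E14 (3.93 ± 0.49, adjusted p = 2.97e-09). The Igtp rise of 0.88 there was lost without adult replicate 2 or E14 replicate 1.

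Markers of other cell types moved with age in the same samples, and their part was not tested. T and NK cell markers averaged 5.16 to 7.27 in adult and 2.84 to 3.36 in E14 Kupffer cells, 6.25 to 6.73 in adult and 3.54 to 3.71 in E14 liver CD11bhigh macrophages, and 4.65 to 4.93 in adult and 2.40 to 2.63 in E14 kidney F4/80high macrophages. Endothelial markers were at 5.26 to 6.95 in adult and 4.06 to 4.39 in E14 Kupffer cells, and neutrophil markers at 5.81 to 7.62 in adult and 9.61 to 9.82 in E14 liver CD11bhigh macrophages. The mean of 6 kidney tubule markers was 5.80 to 8.17 in adult and 2.125 to 2.60 in E14 kidney F4/80high macrophages. Ifng had larger adult means as well, for which no test was run. It averaged 3.90 ± 0.38 in adult and 2.39 ± 0.46 in E14 Kupffer cells, and 3.90 ± 0.33 in adult and 2.15 ± 0.38 in E14 liver CD11bhigh macrophages (SD, n = 3 each).

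Between adult and E14 microglia only Irgm2 passed the test, at 8.34, 8.21 and 8.15 in adults, against 7.08, 7.41 and 6.58 at E14 (1.21 ± 0.27, 6.68% of all genes higher). In limma's test 3 members had an unadjusted p under 0.05, Irgm2, Gbp5 (0.95) and Igtp (0.59), and 1 of the 8 means was lower in adults. More members passed with array weights, in a fit of the compared groups alone and under median centring. Kidney CD11bhigh macrophages went both ways. Gbp7 was at 4.36, 5.52 and 6.02 in adults, against 7.10, 6.43 and 6.88 at E14 (-1.51 ± 0.29), and Igtp fell by 0.93, 2 of 8 members where 20.6% of all genes were lower. Gbp2b (1.05) and Iigp1 (1.22) were higher, where 14.4% of all genes were, at levels around the floor. Their calls were lost without E14 replicate 2 or adult replicate 3, and for Iigp1 without adult replicate 1. Both were also lost with array weights and in a fit of the compared groups alone. T and NK cell markers of this gate were at 5.62 to 6.22 in adults and 2.72 to 2.96 at E14. Its kidney tubule markers were at 7.57 to 9.56 in adults and 2.35 to 2.48 at E14, and their part was not tested.

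Within an organ, the CD11bhigh gate was compared with the resident macrophages of the same age. In the adult liver, 3 of 8 members were lower in CD11bhigh macrophages (12.7% of all genes), and Iigp1 was at 2.89, 5.04 and 3.44 in CD11bhigh cells, against 8.34, 8.56 and 8.04 in Kupffer cells. The changes were -5.49 ± 0.36 for Gbp2b, -4.52 ± 0.44 for Iigp1 and -1.10 ± 0.29 for Gbp7. In the adult kidney 4 were lower (14.4%), with changes of -3.70 for Iigp1, -1.57 for Igtp and -1.49 for Irgm2. The other was Gbp7, at a mean of 5.30 in CD11bhigh macrophages, against 6.30 in F4/80high macrophages. Gbp5 was higher by 1.26 (9.12%). The Gbp5 call was lost without any of 5 of the 6 samples, and that of Gbp7 without CD11bhigh replicate 1. Both were lost with array weights, and that of Gbp7 also in a fit of the compared groups alone. In the E14 liver 3 were lower (11.2%), with changes of -2.14 for Iigp1, -1.41 for Irgm2 and -1.01 for Gbp7, the last lost without CD11bhigh replicate 3. Markers differed between these gates too, and their part was not tested. Neutrophil markers were at 5.81 to 7.62 in CD11bhigh and 3.07 to 3.76 in Kupffer cells of the adult liver, and at 9.61 to 9.82 in CD11bhigh and 5.45 to 5.79 in Kupffer cells of the E14 liver. Endothelial markers were at 3.02 to 3.15 in CD11bhigh and 5.26 to 6.95 in Kupffer cells of the adult liver. In the adult kidney T and NK cell markers were at 5.62 to 6.22 in CD11bhigh and 4.65 to 4.93 in F4/80high macrophages. In the E14 kidney none passed limma's test, 1 had an unadjusted p under 0.05, and 5.81% of all genes were called.

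Over the 27 group means, the genes most like the mean of the 8 members in pattern were Lgals3bp (r = 0.932), Parp14 and Gbp9 (0.929 each), Gm12250 (0.925) and Parp9 (0.921). These coefficients are a description across groups that share stages and tissues.

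Irf8 itself was lower past the threshold in 4 of the 13 knockout populations. The change was -3.02 in E14 liver CD11bhigh macrophages, -1.09 in Langerhans cells, -0.76 in adult kidney CD11bhigh and -0.69 in adult liver CD11bhigh macrophages. In adult microglia it was at 10.29, 10.65 and 9.98 in the knockout, against 9.85, 9.70 and 9.95 in the wild type. No source used here states the deleted part of the gene or the part that the probe reads, and the Irf8 level is therefore no check of the labels. Array medians were 2.94 to 3.19 log2, and precision is limited by how many arrays each group holds.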

How the data were processed

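Expression in sorted macrophages and progenitors of mice was read on 81 single-colour Affymetrix arrays. The authors' deposited values are log2 intensities, and the submitters' processing notes name RMA and Affymetrix Expression Console. RNA was isolated with a PicoPure kit after cell sorting, per the labels' protocols. RMA forces all arrays to 1 distribution, so a change of total RNA cannot be seen. The 2 array runs of the A2 knockout replicate 2 were averaged (r = 0.969), which left 80 samples in 27 groups from the labels. Of 41345 probes, 25335 were in the platform's gene table, 23521 with 1 symbol, 1814 with several and none without, and the other 16010 are unnamed here. Of 22180 genes, each read by its brightest probe over all arrays, the 17099 above 3.041 log2 on at least 2 arrays were tested.

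One limma model (limma 3.58.1, R 4.3.3, lmFit and eBayes with trend, 53 residual degrees of freedom) with a mean per group gave two-sided p-values, adjusted over all tested genes by Benjamini-Hochberg, with a threshold of 0.05. Errors of changes are the model's SE, those of group means the SD. On data simulated for knockout minus wild type in adult Kupffer cells over 17099 genes, the model found 57% of the genes given a change of 1 log2 unit and 99% of the genes given 2, beside 11 false calls. Named were all members, up to 4 genes per list and comparison with the smallest adjusted p, Ifng, Irf1 and Irf8, 1 further gene that is not reported here, and the 5 genes most like the members in pattern. Xist, Eif2s3y, the adult kidney values of Ifnb1 and the counts of calls per gene of a list were looked at after earlier values were seen. The members, lists and tests were chosen with earlier results of these data known. Alternatives were array weights, only the compared groups, other floors, quantile normalization, median centring, every probe on its own, either run of the repeated array, a replicate block and leaving out each sample.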

Additional observations from a re-analysis of the deposited data

Results flagged for a closer look

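For 5 effects of the knockout, the difference between populations itself passed limma's test over all genes, and each is given by the values of both populations. For Gbp2b, the effect in adult microglia minus that in adult Kupffer cells was 5.91 ± 0.51 (SE, adjusted p = 1.4e-14), since the change was 0.08 in microglia and -5.84 in Kupffer cells. The effect on Gbp2b in adult Kupffer cells minus that in E14 Kupffer cells was -5.16 ± 0.51 (adjusted p = 2.6e-11), with changes of -5.84 in adults and -0.68 at E14. Both differences rest on the adult Kupffer cells, in which genotype and sex cannot be told apart. For Iigp1, the effect in adult microglia minus that in adult Kupffer cells was 2.86 ± 0.62 (adjusted p = 0.00056), with changes of 1.44 and -1.42. Against adult kidney F4/80high macrophages, where Iigp1 changed by -1.28 (adjusted p = 0.105), the difference was 2.72 ± 0.62 (adjusted p = 0.0016). The Iigp1 difference against Kupffer cells also uses samples in which genotype and sex cannot be told apart. The Iigp1 call in adult microglia was lost without knockout replicate 3 or wild-type replicate 2. That in adult Kupffer cells was lost without knockout replicate 2 or wild-type replicate 1 or 2, with array weights and in a fit of the compared groups alone. For Gbp7, the effect in adult microglia minus that in Langerhans cells was -1.45 ± 0.41 (adjusted p = 0.0052), with changes of 0.28 in microglia and 1.73 in Langerhans cells.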

How the results depend on the processing

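Of 1156 values of the 80 called member changes under other settings, 1076 stayed past the threshold in the same direction, 80 kept the direction but missed it, 55 of these when 1 sample was left out, and none turned round. Each member has 1 probe, so every probe on its own (80 of 80 stayed) and the other floors (80 and 79 of 80) left its levels unchanged. These settings are therefore a weak check. The fit of only the compared groups lost 10 of 80 calls and array weights lost 7 of 80. The counts of called members moved as follows. With array weights they were 3 in A1 (0 in the main model), 4 in E14 microglia (2), 1 in adult kidney F4/80high (0) and 0 in adult kidney CD11bhigh cells (2) for the knockout, 3 in microglia (1), 5 in kidney F4/80high (3) and 2 in kidney CD11bhigh cells (4) for adult minus E14, and 3 in the adult kidney (5) and 5 in the E14 liver (3) for CD11bhigh minus resident. With only the compared groups they were 5 in E14 microglia, 0 in E14 kidney F4/80high (1), 1 in Langerhans (2) and 0 in adult kidney CD11bhigh cells, then 4, 5 and 2 for adult minus E14 in the same 3 populations, and 7 in the E14 liver. E14 microglia had 1 under quantile normalization and with no floor. Median centring gave 3 in E14 liver CD11bhigh (5), 1 in Langerhans and 2 in adult minus E14 microglia. For differences of knockout effects, microglia minus Langerhans cells gave 2 with array weights, quantile normalization, centring and the higher floor and 3 with the compared groups (1), adult minus E14 microglia 1 with array weights and compared groups (0), adult minus E14 Kupffer cells 2 with quantile normalization and centring (1), and adult minus E14 kidney F4/80high 1 with array weights (0). The replicate block gave 1 in E14 microglia and 1 in the kidney F4/80high difference and changed no other count. By the correlations of same-numbered samples no comparison was taken as paired, and the rule could not accept a comparison with 2 pairs. Sex-linked genes followed the numbers at E14 all the same. Eif2s3y was at 2.40, 5.84 and 7.13 in knockout Kupffer cells and 1.68, 5.03 and 7.39 in knockout liver CD11bhigh macrophages. In knockout microglia it was at 2.26, 5.63 and 7.46. Same-numbered E14 samples may share animals, and the correlations do not exclude a pairing of the E14 liver gates. Nor do they exclude one of the wild-type adult kidney gates. There the 3 same-numbered pairs had r = 0.096 to 0.386, against -0.351 to 0.282 for the other pairs, and the rule was narrowly missed. For the E14 kidney gates the block used the numbers of the titles, which differ there from those of the descriptions. That choice was made after the data were seen. Leaving out 1 sample gave 3 to 5 in A2, 1 to 2 in E14 microglia, 4 to 5 in E14 Kupffer, 2 to 4 in E14 liver CD11bhigh, 4 to 6 in E14 kidney CD11bhigh, 1 to 2 in adult microglia, 2 to 4 in adult Kupffer, 0 to 1 in adult kidney F4/80high, 1 to 2 in Langerhans and 1 to 3 in adult kidney CD11bhigh cells for the knockout. For adult minus E14 it gave 1 to 2 in microglia, 5 to 6 in Kupffer, 2 to 4 in kidney F4/80high, 5 to 6 in liver CD11bhigh and 2 to 4 in kidney CD11bhigh cells, and for CD11bhigh minus resident 3 to 4 in the adult liver, 4 to 5 in the adult kidney and 2 to 4 in the E14 liver. A1 minus E8 ranged over 5 to 6, the difference between microglia and Langerhans cells over 0 to 2, that of Kupffer cells by age over 1 to 2 and that of kidney F4/80high cells by age over 0 to 1. The cause of these movements was not tested. Genes near the floor, Gbp2b and Iigp1 in most groups and Gbp3 and Gbp5 in several knockout groups, have compressed changes. With 2 or 3 arrays a group the precision is limited.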
